A study of Mus musculus with 4 samples.

Results

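In posterior forelimb buds, the genes Osr1, Osr2, Pkdcc, Prdm1, Cntfr, Rasgef1b and Tfap2b were examined as targets that respond to Sonic hedgehog (SHH). Their members in the data were the ATAC-seq peaks that overlapped a gene body or the 100 kb on either side of it (mm10, GENCODE M21). These peaks merged into 75 regions, of the 44692 that the 4 peak lists held in all. ATAC-seq marks open chromatin by the DNA that the Tn5 transposase can reach, and a peak list gives the positions at which such fragments pile up. Each library came from the posterior parts of the forelimb pair of a single E10.5 embryo (35 somites) on the Swiss Webster background, with 5000 cells in the reaction and 18 cycles of PCR. The groups were 2 wild-type (WT) embryos and 2 Shh-/- embryos, which lack the ligand in every tissue and carry no other allele named in the labels. The libraries are called WT replicate 1 and 2 and Shh-/- replicate 1 and 2.

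SHH is made at the posterior margin of the limb bud and tells mesenchymal cells how to grow and which digits to form. When SHH binds its receptor Patched, the membrane protein Smoothened is released and GLI transcription factors can act as activators, while without SHH the GLI proteins, chiefly GLI3, are cut to a repressor form that sits on target genes. Targets are controlled by promoters and by distal elements in introns or between genes, and both can be seen as ATAC-seq peaks. The 7 genes have different tasks. Osr1 and Osr2 are the odd-skipped zinc finger transcription factors, Prdm1 (BLIMP1) is a zinc finger repressor, and Tfap2b is an AP-2 transcription factor. Pkdcc is a secreted kinase needed for long bone growth, Cntfr is the ligand-binding receptor subunit for ciliary neurotrophic factor, and Rasgef1b is a guanine nucleotide exchange factor for small GTPases of the Ras family.

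The lists were of very different length, which touches every count below. They held 39080 and 11973 peaks in WT and 5589 and 18459 peaks in Shh-/-, and peaks at promoters made up between 42.1% of a list (WT replicate 1) and 72.3% (WT replicate 2). The median GC content around distal summits ranged from 48.5% in Shh-/- replicate 1 to 54.0% in WT replicate 2. The 3 exons of Shh held 0 peaks in every library, so the genotype could not be read from the lists. Of 8 limb mesenchyme genes, 8 and 4 had a promoter peak in the WT libraries and 4 and 6 in the Shh-/- libraries. Markers of other cell types were counted in the same way. Ectoderm genes had between 0 and 2 of 6, endothelial genes between 0 and 1 of 5, and blood genes between 0 and 1 of 5, while 3 muscle progenitor genes had 3 and 1 in WT and 0 and 3 in Shh-/-. No promoter peak in any list was found for 3 of the ectoderm genes (Cdh1, Grhl2 and Wnt7a), 4 of the endothelial genes (Cdh5, Pecam1, Tie1 and Tek), 4 of the blood genes (Gata1, Ptprc, Hbb-bt and Hba-a1) and 0 of the muscle progenitor genes. Depth is unknown from peak lists, and where a list lacks a peak the chromatin may still have been open.

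To ask whether open chromatin around these genes differed between the genotypes, peaks in the 7 windows were counted first. The 2 WT libraries had 65 and 22 peaks there, and the 2 Shh-/- libraries had 16 and 33. The WT counts lay on both sides of the larger Shh-/- count, so the groups overlapped. WT embryos averaged 43.5 peaks (SD 30.4, n = 2) and Shh-/- embryos 24.5 (SD 12.02, n = 2). For the difference of 19, a two-sided exact permutation test gave p = 0.667. As 2 against 2 allows no p below 0.333, the test could not have set the groups apart. Relative to list length the order turned. Per 1000 peaks of its list, the windows held 1.66 and 1.84 peaks in WT and 2.86 and 1.79 in Shh-/-. With each list limited to its 5589 best ranked peaks the counts were 9 and 7 in WT and 16 and 9 in Shh-/-, and without WT replicate 1 the difference between the means was -2.5.

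The windows were very unevenly filled. Cntfr had 30 regions and Pkdcc 15, while Rasgef1b had 14, Osr2 6, Osr1 5, Prdm1 3 and Tfap2b 2. Per 100 kb of window this came to 12.5 regions for Cntfr and 7.15 for Pkdcc, compared with 1.64 over the genome. Prdm1 (1.03) and Tfap2b (0.871) lay below the genome, and Rasgef1b (1.97), whose body is 512 kb long, was close to it. The window of Cntfr also holds 10 other protein-coding genes, against 0 in those of Osr1, Pkdcc and Rasgef1b and 1 in each of the others. Of the 75 regions, 24 overlapped a promoter window, from 2 kb before to 1 kb after a transcription start site (TSS) of any gene, and the other 51 were distal.

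**Figure D1:**
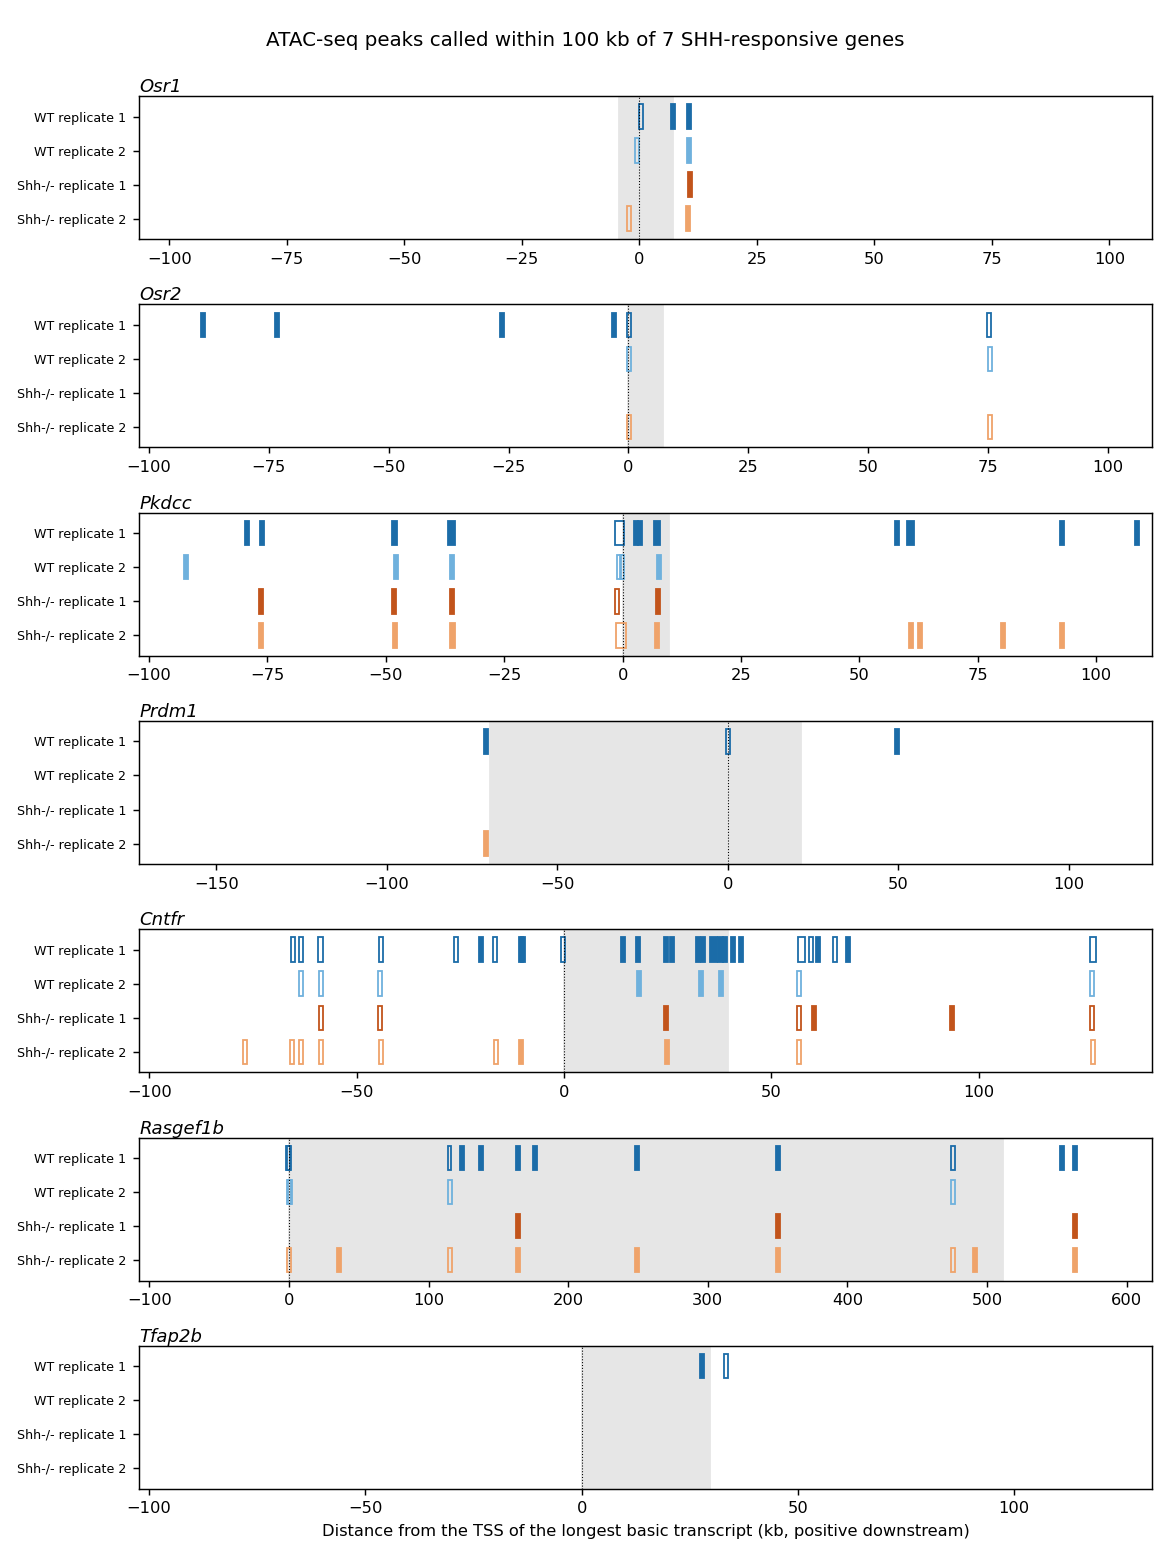
Peaks in the windows of the 7 genes, 1 panel for each gene, by distance from the TSS of its longest basic transcript in kb, with the gene body shaded and 1 row for each library (open boxes, regions at a promoter of any gene; filled boxes, distal regions; boxes are widened to stay visible). Pkdcc has a column of distal peaks in all 4 rows on each side of its promoter, whereas the filled boxes over the body of Cntfr lie mostly in the rows of the WT libraries.

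Promoter peaks were listed for more of the 7 genes in WT, in lists of unequal length. A peak in a promoter window of the gene itself was found for 6 and 4 of the 7 genes in the WT libraries and for 1 and 3 in the Shh-/- libraries. Over all 21938 protein-coding genes the shares with such a peak were 60.4%, 39.2%, 17.3% and 51.3% in the same order. The groups did not overlap, and the difference of 3 between the means (5 ± 1.41 against 2 ± 1.41 genes, SD, n = 2) reached p = 0.333 by the exact permutation test, the smallest that the design allows. In lists of equal length the counts were 1 and 1 in WT and 1 and 0 in Shh-/-. Of 15 other SHH-responsive genes of the limb bud, 14 and 11 had a promoter peak in WT and 3 and 10 in Shh-/-. The rank of a peak in its list, by the deposited score with 1 the best, was also given as a percentile (100 is the best peak of the list). A percentile does not remove list length, because further weak peaks in a list raise the percentile of the others. At the Pkdcc promoter, rank 4462 was percentile 20.2 in Shh-/- replicate 1, while rank 7518 was percentile 80.8 in WT replicate 1.

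**Figure D2:**
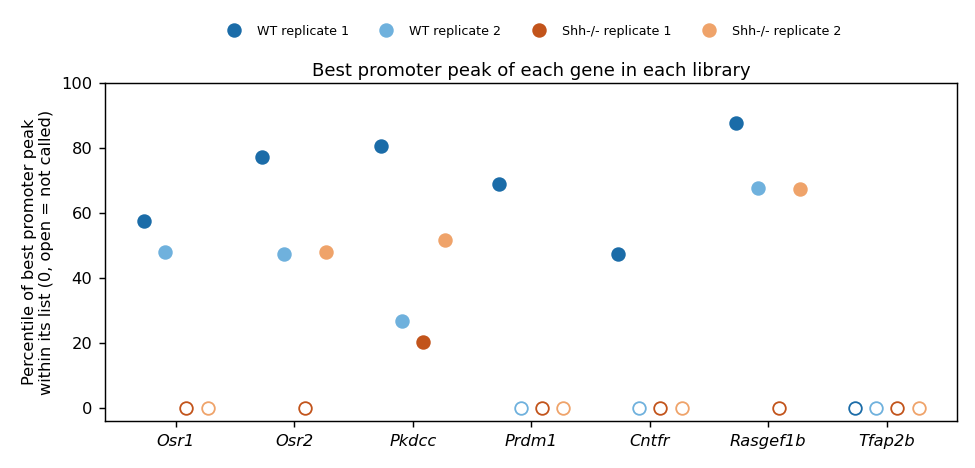
Percentile of the best promoter peak of each gene within the list of each library (100 is the best ranked peak), with open circles at 0 for a promoter that was not called. Pkdcc is the gene with filled points in all 4 libraries, Prdm1 and Cntfr have 1 filled point each, and Tfap2b has none.

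Among the transcription factors, Osr1 (chr12:9570116-9581500, plus strand) was the member whose promoter was called in each WT library and in neither Shh-/- library. The peak of WT replicate 1 spanned exon 1 and the start of intron 1 (chr12:9574377-9575073, rank 16579, percentile 57.6), with its summit 138 bp after the TSS. That of WT replicate 2 lay before the TSS (chr12:9573743-9573945, rank 6225, percentile 48.0), with its summit at -575 bp. The WT peaks did not touch each other, so they formed separate regions. Of the 24 promoter regions in the 7 windows, 0 were called in each WT list and no mutant list, against a background of 2.57%. Shh-/- replicate 2 had a peak of 202 bp at -2.11 kb (chr12:9572227-9572428, rank 17721 of 18459), outside the promoter window of Osr1 and inside that of the neighbouring 1700022H16Rik.

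Beyond the promoter, Osr1 had a distal region in all 4 libraries. It lay between genes (chr12:9584636-9585248), with summits from 10.4 to 10.6 kb after the TSS. Its ranks were 19000 and 11834 in WT and 4345 and 12144 in Shh-/-, percentiles of 51.4 and 1.17 against 22.3 and 34.2. The peak of WT replicate 2 thus stood among the last of its list, and the 4 peaks had 41 bp in common. The other distal region, at 7.21 kb, was called in WT replicate 1 alone (chr12:9581545-9581758, rank 22490). As an example of a region found in every list, 200 bp of it are shown (chr12:9584969-9585168, plus strand of mm10; RefSeq, GRCm38.p6). All sequences shown here centre on the summit of the peak with the highest percentile in its list, here that of WT replicate 1, so other libraries may have called only some of the bases. For Osr1 the WT peaks cover 200 and 83 of the 200 bp and the Shh-/- peaks 158 and 135. In this and the sequences that follow, capitals mark a match to the GLI consensus described below, and here there is none.
Osr1 downstream: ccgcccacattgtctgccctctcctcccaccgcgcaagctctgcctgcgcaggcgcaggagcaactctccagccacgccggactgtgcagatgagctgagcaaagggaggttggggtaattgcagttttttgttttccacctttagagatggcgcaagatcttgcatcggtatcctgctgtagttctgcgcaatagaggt

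Osr2 (chr15:35296098-35303305, plus strand) had its promoter called in 3 libraries, over exon 1 and intron 1 (chr15:35295767-35296632). The ranks were 8847 and 6313 in WT and 9595 in Shh-/- replicate 2, with percentiles of 77.4, 47.3 and 48.0, and it was not called in Shh-/- replicate 1. The percentile in Shh-/- replicate 2 lay within the WT values. Of all distal regions of the genome, 66.6% were called in WT replicate 1 alone. So were all 4 distal regions of Osr2, at -88.7, -73.3, -26.4 and -2.97 kb, with ranks of 13499, 22831, 27444 and 19256. The 3 best ranked of them were chr15:35207204-35207518 and chr15:35222620-35222895 in introns of the noncoding Gm33497 and chr15:35292787-35293477 between genes.

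Prdm1 (chr10:44437177-44528501, minus strand) had 3 regions in all, and WT replicate 2 and Shh-/- replicate 1 had a peak in none of them. The promoter over exon 1 was called in WT replicate 1 alone (chr10:44458578-44459123, rank 12200, percentile 68.8). The best ranked peaks lay at -70.9 kb (chr10:44529407-44529928), with rank 8727 in WT replicate 1 and 12027 in Shh-/- replicate 2. This region is distal in the basic annotation, but in the full annotation it falls in the promoter window of Prdm1-203, a transcript with a retained intron that starts at position 44528501. The third region, at 49.5 kb, was called in WT replicate 1 alone (chr10:44409024-44409464, rank 14562).

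Tfap2b (chr1:19208914-19238576, plus strand) had no promoter peak in any library at any of its 3 TSSs, as had 37.9% of protein-coding genes. Its window held peaks in WT replicate 1 alone. The distal region covered part of exon 7, the last exon (chr1:19236433-19237061, rank 17146), and the other peak lay at the promoter of the noncoding Gm28340 (chr1:19242114-19242374, rank 33805).

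Of the signaling genes, Pkdcc (chr17:83215292-83225070, plus strand) had 6 of its 14 distal regions called in both genotypes, the highest number of the 7 genes, against a background of 14.6% of all distal regions. It was the member with a promoter peak in all 4 libraries (chr17:83213774-83216017), compared with 16.1% of protein-coding genes. The best promoter peak ranked 7518 and 8762 in the WT lists and 4462 and 8941 in the Shh-/- lists. The percentiles were 80.8 and 26.8 in WT and 20.2 and 51.6 in Shh-/-, so the groups overlapped. WT replicate 2 had separate peaks at -830 and -189 bp, while single peaks of 1799 and 2094 bp covered this stretch in WT replicate 1 and Shh-/- replicate 2. The peak of Shh-/- replicate 1 had its summit at -1231 bp and ended before the TSS.

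Of the 51 distal regions of all 7 genes, 4 (7.84%) were called in all 4 libraries, against a background of 1.73% of the 27184 distal regions of the genome, and 3 of these 4 belonged to Pkdcc. The region at -48.2 kb (chr17:83166622-83167578, intergenic) ranked 3841 and 10169 in WT and 410 and 2045 in Shh-/-. It was the best ranked distal peak of the 7 genes in either Shh-/- list. The peak of WT replicate 2 was 204 bp wide and lay at the proximal edge, with its summit up to 486 bp from the others. The region at -36.1 kb (chr17:83178523-83179957, intergenic) ranked 5355 and 4840 in WT and 1049 and 4013 in Shh-/-, and the 4 peaks shared 341 bp. The third, at 7.33 kb, covered exon 5 and parts of introns 4 and 5 (chr17:83221954-83223280), with ranks of 3702 and 8763 in WT and 2685 and 4271 in Shh-/-. The 4 summits lay within 60 bp of each other, the closest of the 4 shared distal regions. In the full annotation only the upstream edge of this region overlaps the promoter window of Pkdcc-202, a transcript without a coding frame. Of the peaks in the region, that of WT replicate 1 alone reaches this window, and the summits lie outside it.

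For these 3 regions 200 bp are shown, since they are the distal regions of Pkdcc with a peak in each of the 4 lists (mm10, plus strand; chr17:83167093-83167292, chr17:83179222-83179421 and chr17:83222750-83222949). The first centres on the summit of Shh-/- replicate 1 and the others on that of WT replicate 1. The peak of WT replicate 2 covers 0 of the bases shown at -48 kb, 159 at -36 kb and 195 in intron 5, and the peaks of the other libraries cover all 200. They hold no match to the GLI consensus and so no capitals.
Pkdcc -48 kb: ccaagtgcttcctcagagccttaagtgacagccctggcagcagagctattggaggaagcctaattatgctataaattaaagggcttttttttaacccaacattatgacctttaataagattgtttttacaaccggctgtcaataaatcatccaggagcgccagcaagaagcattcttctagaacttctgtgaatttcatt
Pkdcc -36 kb: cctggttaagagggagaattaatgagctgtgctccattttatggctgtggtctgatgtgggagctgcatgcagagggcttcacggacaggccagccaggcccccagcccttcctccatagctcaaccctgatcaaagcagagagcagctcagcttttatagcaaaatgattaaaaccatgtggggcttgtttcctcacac
Pkdcc intron 5: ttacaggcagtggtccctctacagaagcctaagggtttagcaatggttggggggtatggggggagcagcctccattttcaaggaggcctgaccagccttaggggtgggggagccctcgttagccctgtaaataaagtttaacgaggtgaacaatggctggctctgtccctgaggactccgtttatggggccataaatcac

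Around Pkdcc the other distal regions were called in fewer libraries. A region at -76.3 kb (chr17:83138714-83139364) ranked 2120 and 15193 in Shh-/- and 10798 in WT replicate 1, and was not called in WT replicate 2. A region of 1357 bp at 60.8 kb (chr17:83275440-83276796) ranked 6419 in WT replicate 1 and 16762 in Shh-/- replicate 2. A further region at 92.7 kb was called in those libraries as well, at ranks 23254 and 18013. Of the rest, 5 were called in WT replicate 1 alone, 1 in WT replicate 2 alone (-92.1 kb, chr17:83123030-83123372, rank 8761) and 2 in Shh-/- replicate 2 alone (62.7 and 80.3 kb, ranks 16763 and 16764). The 3 best ranked of those in WT replicate 1 alone were chr17:83218761-83219140 (rank 19567) and chr17:83217979-83218466 (rank 28019), both in intron 1, and chr17:83135860-83136080 (rank 28018). Both intronic regions fall in the promoter window of the protein-coding Pkdcc-203 in the full annotation.

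Rasgef1b (chr5:99217426-99729065, minus strand) has promoters near either end of its long body. The inner promoter (chr5:99252424-99253338) was the best ranked promoter of the 7 genes in 3 libraries, with ranks of 4761 and 3877 in WT and 6027 in Shh-/- replicate 2 and percentiles of 87.8, 67.6 and 67.4. The outer promoter, where the longest transcript starts, was called in those libraries too (chr5:99727754-99729207), at ranks 10337, 10684 and 11710. Shh-/- replicate 1 called neither promoter. Of the 10 distal regions of Rasgef1b, the WT libraries called 8 and 0 and the Shh-/- libraries called 3 and 6. The 8 in WT replicate 1 included 0 called in WT replicate 2, and 3 and 4 called in the Shh-/- libraries. Over all distal regions called in WT replicate 1, the share was 6.85% in WT replicate 2 and 6.12% and 16.6% in the Shh-/- libraries.

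The 3 regions of Rasgef1b in both Shh-/- lists were also in WT replicate 1. In intron 3 (chr5:99377995-99378899) the ranks were 7692 in WT replicate 1 and 1978 and 2201 in Shh-/-. In intron 2 (chr5:99564331-99565216) they were 29957 in WT replicate 1 and 1324 and 7954 in Shh-/-. Of the 3 regions this one had the widest gap in rank between WT replicate 1 and the Shh-/- lists. The peak of WT replicate 1 stood in the lower part of its list, at percentile 23.3, and the Shh-/- peaks at 76.3 and 56.9. WT replicate 2 called none of the 3 regions and the lists differ in length, so this gap does not compare the genotypes. The last, downstream of the gene in an intron of Gm43251 (chr5:99165677-99166227), ranked 14139 in WT replicate 1 and 1612 and 12865 in Shh-/-. The distal regions of Rasgef1b had a median GC content of 42.8%, below that of Cntfr (53.8%) and of all distal regions (53.0%), and the distal peaks of Shh-/- replicate 1 had the lowest median GC content of the 4 lists. The part of GC content in these calls was not tested. The 200 bp around the summit of Shh-/- replicate 1 in the intron 2 region are shown as the sequence with this gap in rank, with no GLI match (chr5:99564745-99564944, plus strand of mm10, GC content 41.0%).
Rasgef1b intron 2: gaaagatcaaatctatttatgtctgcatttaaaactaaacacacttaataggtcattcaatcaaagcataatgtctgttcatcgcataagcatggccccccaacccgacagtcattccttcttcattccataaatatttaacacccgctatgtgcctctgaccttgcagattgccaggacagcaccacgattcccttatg

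Other distal regions of Rasgef1b were called in fewer libraries. The 3 best ranked regions in WT replicate 1 alone were chr5:99604775-99605011 (rank 20915), chr5:99552759-99553079 (24966) and chr5:99590780-99591199 (29958), all intronic.

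Cntfr (chr4:41657498-41697089, minus strand) was the gene with distal regions listed in both WT libraries and neither Shh-/- library, in lists of unequal length. Of the 51 distal regions of the 7 genes, 3 (5.88%) were called in each WT list and in neither mutant list, against a background of 1.78% of all distal regions, and all 3 lay in the body of Cntfr. Counted with promoters, the same 3 stood among 75 regions, against a background of 2.09%. No distal region of the 7 genes was called in both Shh-/- lists alone, against a background of 0.607%. At least 3 such WT regions in a gene body were found for 7 of 21938 protein-coding genes (0.0319%), Cntfr among them, and at least 1 for 303 (1.38%). Genes with at least 3 held between 6 and 420 distal regions in their bodies, and Cntfr held 9. The limit of 3 is the count of Cntfr itself, and genes with fewer distal regions in the body could not reach it. The share of 0.0319% therefore does not measure how rare the Cntfr count is among genes with like numbers of regions. The first of the 3 regions of Cntfr covered exon 8 and parts of introns 7 and 8 (chr4:41658774-41659841), 37.7 kb from the TSS. It ranked 11868 and 10518 in the WT lists. The second covered exon 5, intron 5 and parts of exon 6 and intron 4 (chr4:41663275-41664108, 33.3 kb), with ranks of 24392 and 7767. The third lay in intron 2 (chr4:41678803-41679382, 17.9 kb), with ranks of 24393 and 10519.

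These WT peaks stood in the middle or low part of their lists. The percentiles were 69.6, 37.6 and 37.6 in WT replicate 1 and 12.2, 35.1 and 12.2 in WT replicate 2. Scores were tied over long stretches, so that the ranks 24392 and 24393 both stand for a score of 32, which ran from rank 23486 to rank 28320. The overlap of the replicates varied as well. In the first region the peak of WT replicate 2 lay wholly within that of WT replicate 1 (376 bp in common), and in the third 280 bp were shared. In the second, the peaks shared 8 bp and their summits were 236 bp apart. In the full annotation the second region falls in the promoter window of Cntfr-206, a transcript without a coding frame. With summits required to lie within 150 bp only 1 of the 3 regions was left, and with a score of at least 50 or with lists of equal length 0 were left.

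For these regions 200 bp around the summit of WT replicate 1 are shown, since they are the distal regions with a peak in both WT lists and no mutant list (mm10, plus strand; chr4:41659362-41659561, chr4:41663733-41663932 and chr4:41679162-41679361). The peaks of WT replicate 2 cover little of them, with 42, 28 and 4 of the 200 bp. The last, from intron 7, is the best ranked distal peak of the 7 genes that no Shh-/- list holds (chr4:41660987-41661186). Capitals mark a match to the GLI consensus TGGGTGGTC, allowing 1 mismatch on either strand.
Cntfr 37.7 kb, intron 7: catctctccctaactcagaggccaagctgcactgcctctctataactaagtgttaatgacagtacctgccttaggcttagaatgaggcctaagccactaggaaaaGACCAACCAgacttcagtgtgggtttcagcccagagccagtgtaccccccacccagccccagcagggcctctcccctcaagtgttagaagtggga
Cntfr 33.3 kb, intron 4: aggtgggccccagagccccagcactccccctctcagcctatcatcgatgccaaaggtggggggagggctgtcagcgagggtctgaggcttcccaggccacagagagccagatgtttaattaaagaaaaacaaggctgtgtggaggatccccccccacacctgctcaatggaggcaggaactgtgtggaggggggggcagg
Cntfr 17.9 kb, intron 2: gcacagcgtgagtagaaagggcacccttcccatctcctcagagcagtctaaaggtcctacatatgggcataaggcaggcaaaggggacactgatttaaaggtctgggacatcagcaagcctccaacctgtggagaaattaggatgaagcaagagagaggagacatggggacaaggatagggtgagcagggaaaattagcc
Cntfr 36.1 kb, intron 7: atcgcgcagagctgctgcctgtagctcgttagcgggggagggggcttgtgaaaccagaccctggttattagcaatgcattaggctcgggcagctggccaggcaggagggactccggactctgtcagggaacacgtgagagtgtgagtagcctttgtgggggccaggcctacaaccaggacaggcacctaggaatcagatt

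The region of intron 7 (chr4:41660152-41661703) was 1552 bp wide and was called in WT replicate 1 alone, with rank 5648 and a score of 199. Between ranks 3909 and 7816 of that list, the second of 10 bands of equal size, 843 distal regions were found. Of those, 86.5% were also called in Shh-/- replicate 2, 12.5% were in neither Shh-/- list and 9.49% were in no other list at all. The next 2 of Cntfr in WT replicate 1 alone were chr4:41682597-41683146 in intron 2 (rank 15554) and chr4:41628365-41628797 in an intron of Dnaic1 (rank 17628). In contrast, intron 3 held a region (chr4:41671803-41672646, 24.8 kb) with rank 4039 in WT replicate 1 and ranks of 2783 and 4956 in Shh-/-, and WT replicate 2 did not call it. The promoter of Cntfr was called in WT replicate 1 alone (chr4:41696990-41697405, rank 20522, percentile 47.5). Thus 2 of the 3 libraries with a peak in intron 3 had no peak at the promoter.

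**Figure D3:**
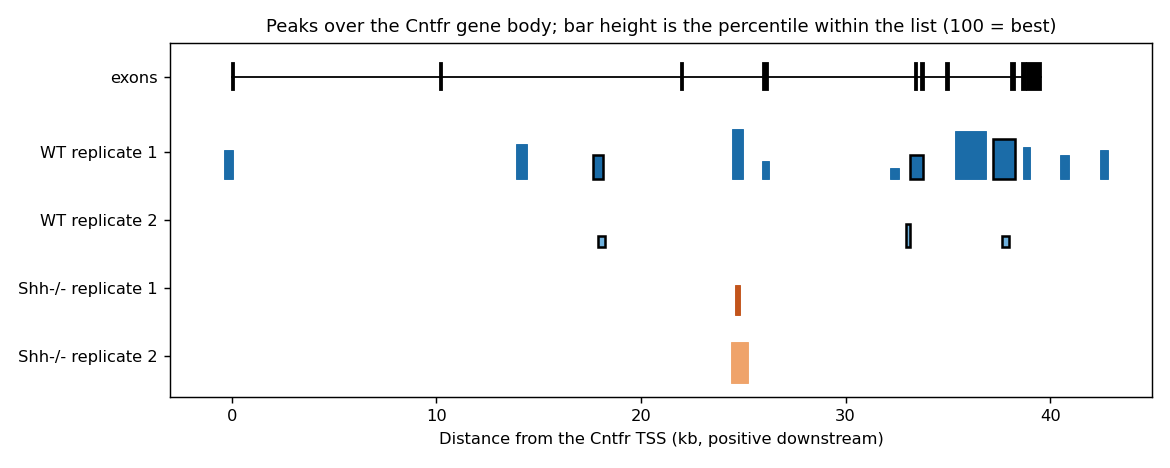
Peaks over the body of Cntfr by distance from its TSS in kb, with exons in black and 1 row for each library, where the height of a bar is the percentile of the peak within its list and a black outline marks peaks of regions called in each WT list and neither Shh-/- list. WT replicate 1 has peaks along the whole body and WT replicate 2 has 3 outlined peaks, while each Shh-/- library has 1 peak, in intron 3.

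Since WT replicate 1 had the longest list, the distal regions it called were set beside regions of like rank. Over all distal regions of this list, the share also called elsewhere fell with rank, which was divided into 10 bands of equal size. In the first band 84.2% were called in WT replicate 2, and 80.5% and 94.9% in the Shh-/- lists. In the last band these shares were 1.19%, 0.564% and 3.20%. For the members, the genome-wide shares of their bands were summed, which gives the number of regions that their ranks alone would place in a library. Of the 44 distal regions of the 7 genes in WT replicate 1, 30 were in neither Shh-/- list, and the shares summed to 31.7. Of these 44, 7 were called in WT replicate 2 (sum 5.77), and the Shh-/- lists held 9 (sum 5.37) and 14 (sum 11.8). The 7 genes had 3 regions in both WT lists and no mutant list, where the shares summed to 1.07. In the window of Cntfr, 14 of 16 regions were in neither Shh-/- list (sum 12.2) and 3 were in WT replicate 2 and no mutant list (sum 0.400). In its body alone these were 8 of 9 (sum 6.17) and 3 (sum 0.233). Cntfr and its body stand out by these same 3 regions, so their sums are no separate support. Without Cntfr, 16 of 28 were in neither Shh-/- list (sum 19.6), and the Shh-/- lists held 8 (sum 3.98) and 12 (sum 8.15). For Rasgef1b 3 of 8 were called in Shh-/- replicate 1 (sum 0.639), and for Pkdcc 4 of 11 (sum 2.78). No test was made of these differences.

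**Figure D4:**
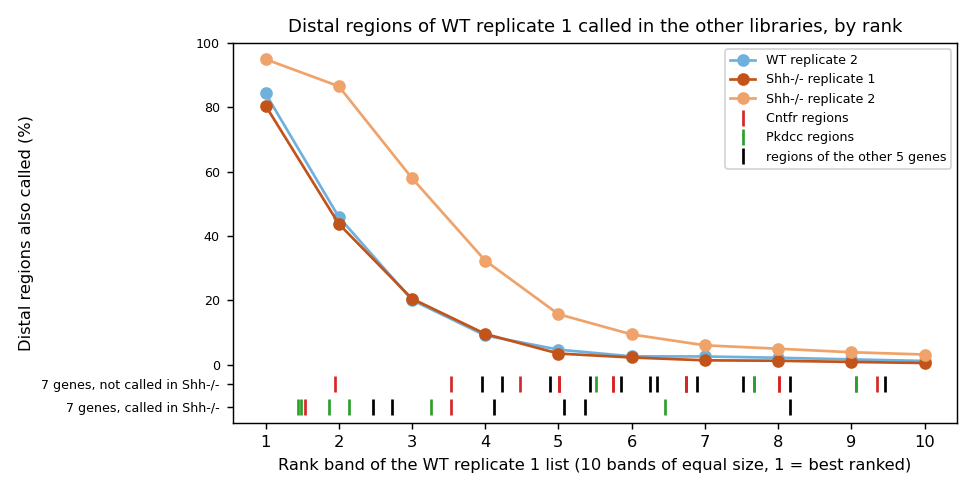
Share of the distal regions of WT replicate 1 that were also called in each other library (%), by band of rank in the list of WT replicate 1 (10 bands of equal size), over all distal regions of the genome, with the 44 distal regions of the 7 genes as ticks below, placed by their rank. The lines fall from between 80.5% and 94.9% to between 0.564% and 3.20%, and the Cntfr tick near band 2 in the upper row is the intron 7 region called in no Shh-/- list.

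Counting every distal region by the genotypes that called it, 31 of 51 (60.8%) were in at least 1 WT list and neither Shh-/- list, against a background of 74.1%. Of these 31, 27 came from WT replicate 1 alone, 1 from WT replicate 2 alone and 3 from both. The 27 were 52.9% of the 51, against a background of 66.6% of all distal regions in WT replicate 1 alone. The share in WT alone was 14 of 18 for Cntfr, 6 of 14 for Pkdcc, 4 of 10 for Rasgef1b, 4 of 4 for Osr2 and 1 of 2 for Osr1 and for Prdm1, and the single distal region of Tfap2b was among them. A further 6 of 51 were in a Shh-/- list and neither WT list, against a background of 11.2%. They lay near Cntfr (2, both in Dnaic1 and both from Shh-/- replicate 1), Pkdcc (2) and Rasgef1b (2), the last 4 all from Shh-/- replicate 2. The remaining 14 of 51 were called in both genotypes, against a background of 14.6%. The count in WT alone rested on the longest list. Without WT replicate 1 it was 4 of 24 (background 22.8%), and with lists of equal length it was 0 of 11 (background 11.3%).

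**Figure D5:**
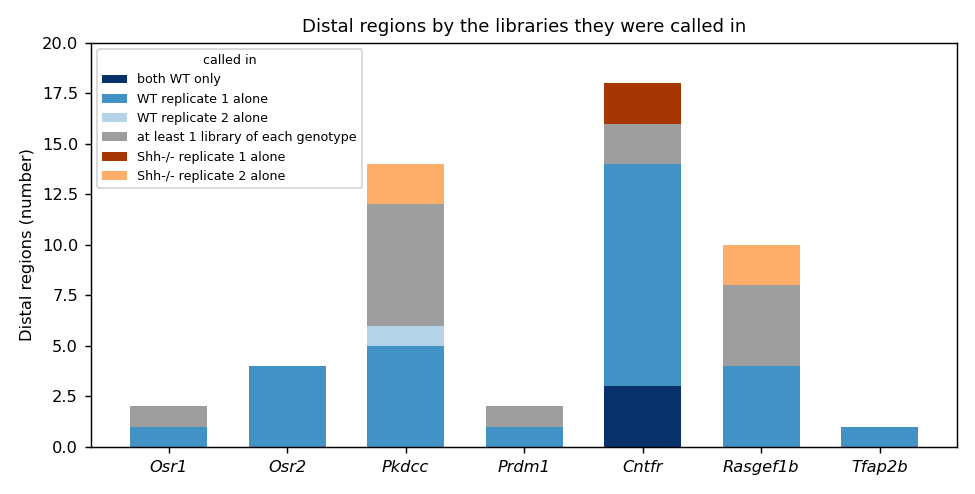
Number of distal regions of each gene, stacked by the libraries they were called in. Dark blue, for regions called in each WT library and neither Shh-/- library, appears for Cntfr alone (3 regions), and most of the remaining regions that are in WT alone come from WT replicate 1.

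To look for shared sequence, the consensus to which GLI proteins bind was searched in the 200 bp around each summit. A match was found in 3 of the 51 distal regions (5.88%), compared with 6.01% of all distal regions, and in 0 of the 24 promoter regions, compared with 5.03% of all promoter regions. The match in Cntfr, in capitals in the sequence of the first region, lay in intron 7 on the minus strand (chr4:41659467-41659475), outside the peak of WT replicate 2. It differs from the consensus by G4T, with positions counted from 1 at the 5′ end of the consensus and the consensus base first. Matches in Pkdcc lay in intron 1, in a region of WT replicate 1 alone (chr17:83218949-83218957, plus strand, G7T), and at 60.8 kb, in the region of WT replicate 1 and Shh-/- replicate 2 (chr17:83276203-83276211, minus strand, G7C). Both are shown, since they are the other matches among the members (chr17:83218867-83219066 and chr17:83276087-83276286, plus strand of mm10).
Pkdcc intron 1: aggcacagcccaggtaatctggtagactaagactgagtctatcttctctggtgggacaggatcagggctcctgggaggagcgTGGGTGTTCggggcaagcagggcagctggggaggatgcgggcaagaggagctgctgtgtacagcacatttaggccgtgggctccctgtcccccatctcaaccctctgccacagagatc
Pkdcc 60.8 kb: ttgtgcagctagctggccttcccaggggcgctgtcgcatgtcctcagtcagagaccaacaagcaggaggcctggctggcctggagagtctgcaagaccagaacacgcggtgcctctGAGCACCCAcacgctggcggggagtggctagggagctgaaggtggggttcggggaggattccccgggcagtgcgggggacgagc

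A match is a stretch of letters and not a bound site, and the share in the distal members was close to that of all distal regions.

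The promoter profiles of the members, as percentiles over the 4 libraries with 0 for not called, were also set beside the 15 other SHH-responsive genes. The smallest mean difference was that of Cntfr and Hoxd13 (0.246 percentile points), and both had a promoter peak in WT replicate 1 alone. The Cntfr peak shares its score of 38 with ranks 19761 to 23485, and the Hoxd13 percentile of 48.5 falls in this tied stretch. Their small difference thus comes from the ordering of ties by position and from shared absence in the other libraries. Prdm1 and Hand2 were likewise called in WT replicate 1 alone. Prdm1 was nearest to Hand2 (1.11), Osr2 to Cdk6 (4.27), Osr1 to Gli1 (6.91), Rasgef1b to Cdk6 (8.26) and Pkdcc to Sall1 (12.1). Tfap2b had no promoter peak and no profile to compare.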

How the data were processed

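The authors made each peak list from a single library, with Bowtie2 2.2.5 and MACS2 2.1.0 named in the processing notes of the submitters and mm10 coordinates. Replicates were not pooled, and read filters and any Tn5 shift are not given in the sources used here. The score that the authors deposited with each peak (lowest values 14, 14, 19 and 18) was used to rank peaks within a list and, in 1 alternative, for a threshold of 50 in every list. Its scale is not stated, 3 other value columns held 0 in every peak, and ties were ordered by position. Read counts were not used here, so the limma fit of the study on signal was not repeated. Peaks overlapping by at least 1 bp were merged with Python 3.11.15, pandas 2.3.3 and NumPy 2.4.6, and the merging was tested on simulated peaks. Groups followed the library titles. Nothing beyond the number shows replicate 1 or 2 of the genotypes to be a pair. Alternatives changed list length, score, overlap, window, promoter definition and libraries. All 7 genes are named, with distal regions printed when called in each WT list and no Shh-/- list, in all 4 lists, or among the 3 best ranked in 1 WT list alone. The genes, lists and tests were chosen with earlier results of these data known.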

Additional observations from a re-analysis of the deposited data

How the results depend on the processing

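Peaks in the 7 windows numbered 19 more in WT than in Shh-/- on average. The sign turned with lists of equal length (-4.5), and leaving out single libraries gave -2.5 (without WT replicate 1) to 40.5 (without WT replicate 2). With a replicate block by the number in the titles the mean difference was 19 again (within-number differences of 49 and -11, exact sign flip test, two-sided, p = 1, with 0.5 the smallest possible). Windows of 50 and 200 kb gave 18.5 and 22.

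With lists of equal length 11 distal regions were left of 51. Of these, 0 were in each WT list alone (background 1.47%), 1 in both Shh-/- lists alone (9.13%), 0 in at least 1 WT list but no Shh-/- list (11.3%) and 7 in at least 1 Shh-/- list but no WT list (66.9%). With a score of at least 50, of unknown scale across lists, 17 were left and these counts were 0 (1.08%), 1 (2.37%), 6 (52.7%) and 2 (17.0%). The single region in both Shh-/- lists alone was in Rasgef1b, in intron 3 at equal length (chr5:99377995-99378661) and in intron 2 at a score of 50 (chr5:99564331-99565216). Merging by summits within 150 bp gave 1 of 58 regions in each WT list alone (background 1.25%) and 10 in a Shh-/- list and no WT list (15.0%). The latter count was 3 of 39 with windows of 50 kb and 11 of 63 with 200 kb (background 11.2% in either case). Leaving out single libraries gave 3 to 30 for each WT list alone. Without WT replicate 2 it was 30 of 50, and 14 of 18 for Cntfr (background 72.5%). Both Shh-/- lists alone had 0 to 5. These were 5 of 24 without WT replicate 1 (9.67%), 4 of 49 without Shh-/- replicate 1 (9.94%) and 2 of 47 without Shh-/- replicate 2 (2.28%). At least 1 WT list had 4 to 36, with 4 of 24 without WT replicate 1 (22.8%) and 36 of 47 without Shh-/- replicate 2 (92.1%). At least 1 Shh-/- list had 2 to 16, with 16 of 24 without WT replicate 1 (65.2%) and 2 of 47 without Shh-/- replicate 2 (2.28%). The difference in promoters called, 3, was 0.5 at equal length, 1.5 at a score of 50 and 2 to 4 without single libraries. Promoters of the full annotation and, for promoter counts, single libraries were tried after seeing the data. The former gave 2 of 45 distal regions in each WT list alone (background 1.68%). The cause of these changes was not tested.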

Other observations

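The windows also hold promoters of genes outside the 7 examined. In the window of Cntfr, the promoters of Galt (chr4:41755163-41756299, ranks 3005 and 5020 in WT and 3611 and 6853 in Shh-/-), Enho and the pair Dnaic1 and Fam219a were called in all 4 libraries, while that of Cntfr itself was called in WT replicate 1 alone. Promoter regions of all genes were called in all 4 libraries in 17.7% of cases. The promoter of Il11ra1, which encodes another cytokine receptor subunit, was called in both WT libraries and Shh-/- replicate 2 (chr4:41760120-41760636, ranks 7237, 3830 and 7894). In the window of Osr2, the promoter of Vps13b was called in the same 3 libraries (chr15:35371103-35371796, ranks 16788, 8606 and 6247).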
